A study of Bos taurus with 4 samples.

Results

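The proteasome genes of the array were taken as all probes whose platform gene symbol starts with PSMA, PSMB, PSMC, PSMD, PSME, PSMF or PSMG, apart from PSMC3IP, which encodes a meiotic recombination factor. This rule used no measured value and found 46 genes with 78 probes, of 15229 genes and 43794 probes on the array. The core particle had 19 genes with 33 probes, the regulatory cap 16 genes with 24 probes, the activators and the inhibitor 4 genes with 9 probes, and the assembly chaperones 7 genes with 12 probes. PSMD13 and PSME3 were not analysed here. No probe, promoter or protein sequence was used here.

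The proteasome is the main protein-degrading machine of the cytoplasm and nucleus and takes apart proteins tagged with ubiquitin. Its barrel-shaped core has outer rings of alpha subunits, which gate the entry, and inner rings of beta subunits, some of which cut the peptide chain. A cap on the barrel recognises ubiquitin, removes it, and unfolds and threads the substrate with a ring of ATPases. Dedicated chaperones build the rings, and in early embryos ubiquitin-dependent degradation is known to clear maternal proteins.

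The samples were pools of early blastocysts of Holstein cattle, taken 168 h after fertilization in vitro with semen of the same bull. The oocytes came from 4 heifers, each collected at 8 and again at 14 months of age. All heifers received progesterone and then 6 injections of 30 mg of FSH, the hormone that drives follicle growth, 12 h apart, and oocytes were aspirated 43 h after the last. Each heifer gave 1 two-colour array, so both ages of an animal were measured against each other on the same array. The 8-month embryos were in Cy5 in heifers 1 and 2 and in Cy3 in heifers 3 and 4. The design asks which transcripts differ in embryos of the same females at different ages around puberty. The 8-month collection always came before the 14-month one, so age and order of collection cannot be told apart. The number of embryos per pool is not given in the labels, and in such pools fewer cells of a type and less RNA per cell cannot be told apart. Neither the 11-month collections nor the RT-qPCR of the study was analysed here.

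Across the series, 26.9% to 41% of all probes were above background in Cy5 and 43.3% to 51.1% in Cy3. The proteasome probes were above background more often, at 73.1% to 83.3% in Cy5 and 85.9% to 89.7% in Cy3. A probe counted as above background where its foreground exceeded the mean of the 153 negative controls by 2 SD, and it was tested where 3 or more samples of the same age met this. Blastocyst identity was checked with marker lists. Of 10 trophectoderm genes 9 were tested (all but ELF3), as were all 6 genes of the inner cell mass that had a probe. Of other possible sources of RNA, 3 of 9 oocyte genes, 6 of 13 cumulus and granulosa genes, 3 of 9 blood genes and 3 of 8 sperm genes reached the filter. The oocyte genes GDF9 and BMP15, the granulosa gene FSHR and the sperm gene PRM2 were above background in 0 of the 8 samples. In contrast, SERPINE2, CYP11A1, STAR, HSD3B1 and INHBA of the granulosa list had a probe above background in all 8 samples. So did PTPRC and HBA of the blood list. The oocyte genes OOEP and MOS (probe EMBV3_28731) were each above background in 4 samples at 8 months and 3 at 14 months. ZP3 (probe EMBV3_15954) was so in 2 samples at 8 months and 3 at 14 months. Of the sperm list, TNP1 was above background in 2 samples at 8 months and 4 at 14 months. For TNP2 the counts were 3 and 3, and for PRM1 0 and 3. Whether RNA of these sources was present was not tested. The mean log2 level of the tested trophectoderm genes was 11.9 to 12.5 at 8 months and 12.1 to 12.3 at 14 months, and the ranges of all 6 lists overlapped between the ages. With 1 probe per gene 3 of the 9 tested trophectoderm genes passed the test, GATA2 and TEAD4 higher and DAB2 lower at 8 months. Over all genes 4.5% of 8398 passed. Their part in the results for proteasome genes was not tested.

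Of the 78 proteasome probes, 65 were tested, which is 83.3% against 40.4% of all probes, and 55 were above background in all 8 samples. The tested probes covered 43 of the 46 genes, and 4 probes reached the filter at 1 age only. These were PSMA2 probe EMBV3_24388 at 8 months, and PSMB10 probe EMBV3_10454, PSMD3 probe EMBV3_36208 and PSMF1 probe EMBV3_28801 at 14 months. Each read higher at the age that let it in, so the sign of its ratio is tied to the filter. PSMA8, PSMB8 and PSMB11 had no tested probe. These encode a testis alpha subunit, an interferon-induced catalytic subunit and a thymus catalytic subunit. The PSMA8 and PSMB8 probes were above background in 0 of the 8 samples and the PSMB11 probe in 1.

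Across the proteasome, as across the array, few transcripts passed the test between the ages. All differences are given as log2 of 8 over 14 months, so a negative value means a lower level in embryos from 8-month-old donors. At an adjusted p of 0.05 (limma, Benjamini-Hochberg over 17685 probes) 1.88% of all tested probes passed, and 1 of the 65 proteasome probes did (1.54%), a probe of the assembly chaperone gene PSMG2, lower at 8 months. By direction, 0.554% of all probes passed as higher and 1.32% as lower at 8 months. With 1 probe per gene, 4.5% of 8398 genes passed, and 1 of 43 proteasome genes did, the lid subunit gene PSMD6, also lower at 8 months. Of all genes 1.7% passed as higher and 2.8% as lower. At an unadjusted p of 0.05, 21 proteasome probes passed (32.3%), 13 of them higher and 8 lower at 8 months, where 26.5% of all probes passed (10.9% higher and 15.5% lower). All 4 heifers moved the same way for 19 proteasome probes (29.2%, 9 above and 10 below 0), against 28.5% of all probes (12.9% above and 15.5% below 0). By direction at an unadjusted p of 0.05, 20% of the proteasome probes were higher and 12.3% lower at 8 months.

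The median ratio of the tested proteasome probes was 0.07 and that of all tested probes was 0.0023, with 40 proteasome probes above 0 and 25 below. In heifers 1 to 4 the proteasome median was -0.036, 0.054, -0.030 and 0.091. The differences were small, as over the whole array, with a median size of 0.14 for proteasome probes and 0.16 for all tested probes. A change above 1.5-fold was seen in 1 proteasome probe and in 509 of all 17685 tested probes. Medians by structure were 0.08 for the core, 0.11 for the cap, 0.04 for the activators and the inhibitor, and -0.15 for the assembly chaperones. The last rests on several probes of PSMG1 and PSMG2: with 1 probe per gene the chaperone median was 0.04, with 5 of 7 genes above 0, and over probes it was -0.06 without heifer 1 and -0.03 with mean spot intensities. With each array centred on its median in place of loess, the medians over probes were -0.11, -0.23, -0.08 and -0.29, and the median of all tested probes was -0.14. Directions therefore depend on the scaling, and not only near 0, as the brightest PSMB7 probe went from 0.34 to -0.02. The centred values of the main members are given where they turn.

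**Figure D1:**
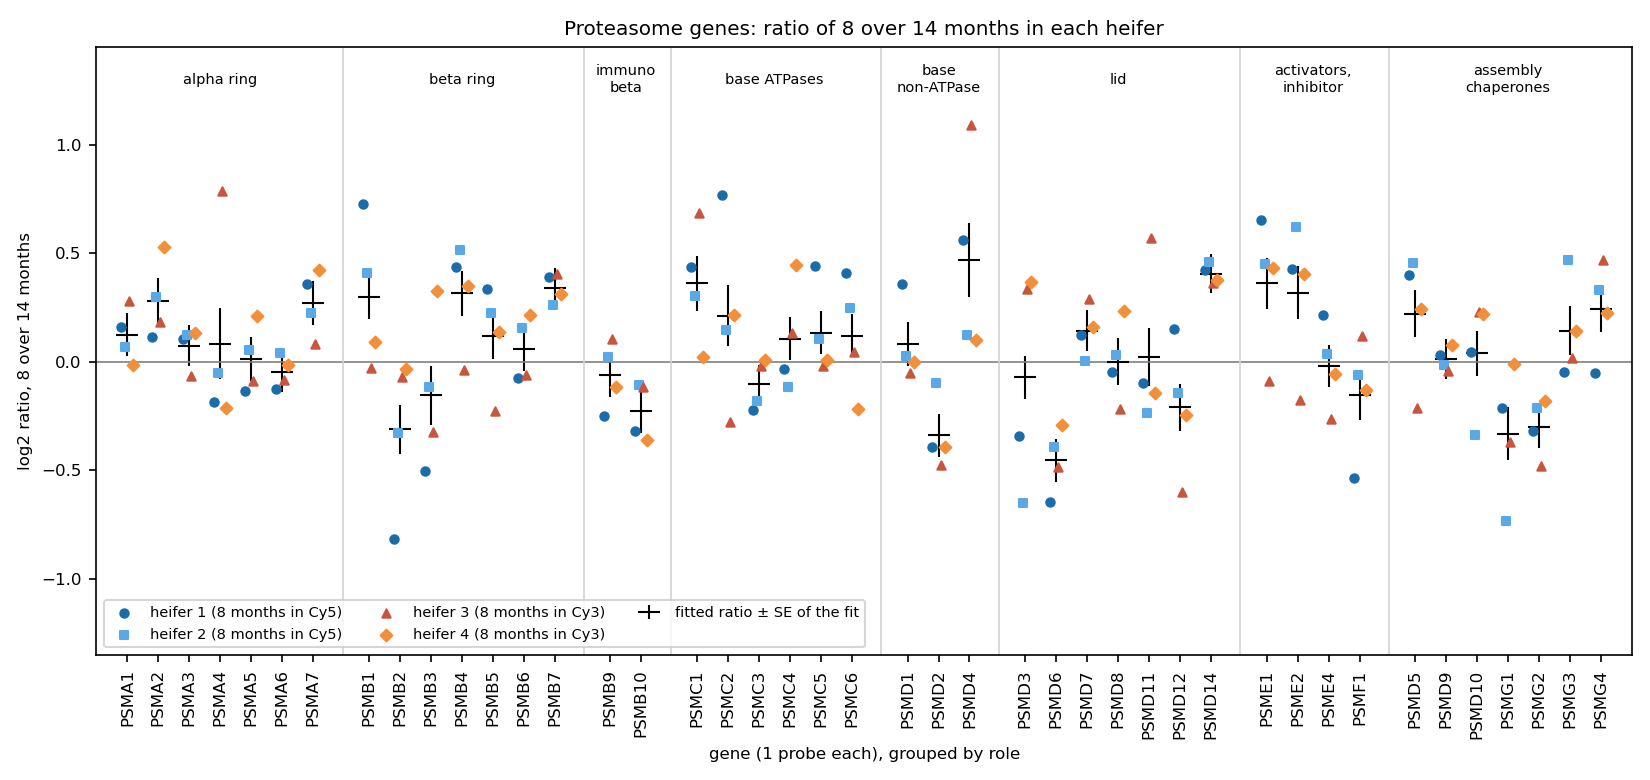
Log2 ratio of 8 over 14 months (vertical axis) for 43 proteasome genes, 1 probe each, in groups by role. Coloured points are the 4 heifers and black bars the fitted ratio ± its standard error. Most genes straddle 0. In all 4 heifers 6 genes lie below 0, among them PSMD6, PSMG1 and PSMG2, and 7 lie above 0, among them PSMD14. Over all 8398 genes, 1278 lie below and 1037 above 0 in all 4. With median centring PSMD14 is at 0.004.

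The assembly chaperones held the largest difference. PSMG1 and PSMG2 form a heterodimer that builds the alpha ring, and every tested probe of both genes was lower at 8 months in all 4 heifers. For PSMG2 probe EMBV3_37339 the log2 signal at 8 months was 7.79, 7.80, 7.88 and 7.79 in heifers 1 to 4, and at 14 months it was 9.40, 8.56, 8.48 and 8.47. The ages did not overlap, and heifer 1 stood apart at 14 months. The 8-month signals lay close to the 10th percentile of probes above background, which was 7.50 to 7.69 on the 4 arrays, and the probe was above background in all 8 samples. The ratios were -1.61, -0.76, -0.59 and -0.68, and the fitted ratio was -0.91 ± 0.15 (SE, n = 4, adjusted p = 0.0449), or 1.88-fold higher at 14 months. The SD between heifers was 0.47. Here and below ± is the standard error moderated by limma over all probes, and without moderation it was 0.21 for this probe. Without heifer 1 the ratio was -0.70 (adjusted p = 0.278), and without heifer 2 it was -1.13 (adjusted p = 0.160), so that the call was lost in both cases. No probe on the array had a lower adjusted p than 0.0449, but other probes shared this value through the adjustment. Among them were probes of DAB2 and GATA2, with unadjusted p of 4.7e-05 and 0.00028 (limma). Both are smaller than the 0.00043 of the PSMG2 probe.

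The second PSMG2 probe, EMBV3_10084, gave ratios of -0.32, -0.22, -0.48 and -0.18. Its fitted ratio was -0.30 ± 0.10 (SE, n = 4, adjusted p = 0.125), which did not pass. Both probes read the same direction in every heifer, but differed in size. The platform annotation names the same gene for both, and which transcripts each probe reads was not tested. In a gene-level test PSMG2 was represented by the brighter probe EMBV3_10084, with an adjusted p of 0.114.

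PSMG1 had 3 tested probes. EMBV3_31277 gave -0.67, -0.27, -0.50 and -0.14 with a fitted ratio of -0.39 ± 0.12 (adjusted p = 0.0987). EMBV3_05341 gave -0.21, -0.73, -0.37 and -0.01, with a fitted ratio of -0.33 ± 0.12 (adjusted p = 0.153). EMBV3_20322 gave -0.14, -0.11, -0.24 and -0.24, with a fitted ratio of -0.18 ± 0.09 (adjusted p = 0.240). None of the 3 passed, and all 12 probe-by-heifer values were below 0. Probe EMBV3_36700, above background in 2 of the 8 samples, was not tested.

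The other heterodimer of alpha-ring chaperones, PSMG3 with PSMG4, did not pass either. PSMG3 was at 0.14 ± 0.11 and, with median centring, at -0.06. The probes of PSMG4 read opposite ways, at 0.24 ± 0.11 and -0.15 ± 0.11, and the former turned to -0.06. PSMD5, PSMD9 and PSMD10, which help to assemble the base of the cap, were at 0.22 ± 0.11, 0.01 ± 0.09 and 0.04 ± 0.10, and the last pair turned to -0.29 and -0.25. Over the 11 tested chaperone probes, 5 were below 0 in all 4 heifers and 0 were above 0 in all 4, and all 4 with an unadjusted p under 0.05 were lower at 8 months. Over all probes, 15.5% were below 0 in all 4 heifers and 15.5% were lower at that p. All 5 probes belong to PSMG1 and PSMG2, which were 2 of the 7 chaperone genes.

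**Figure D2:**
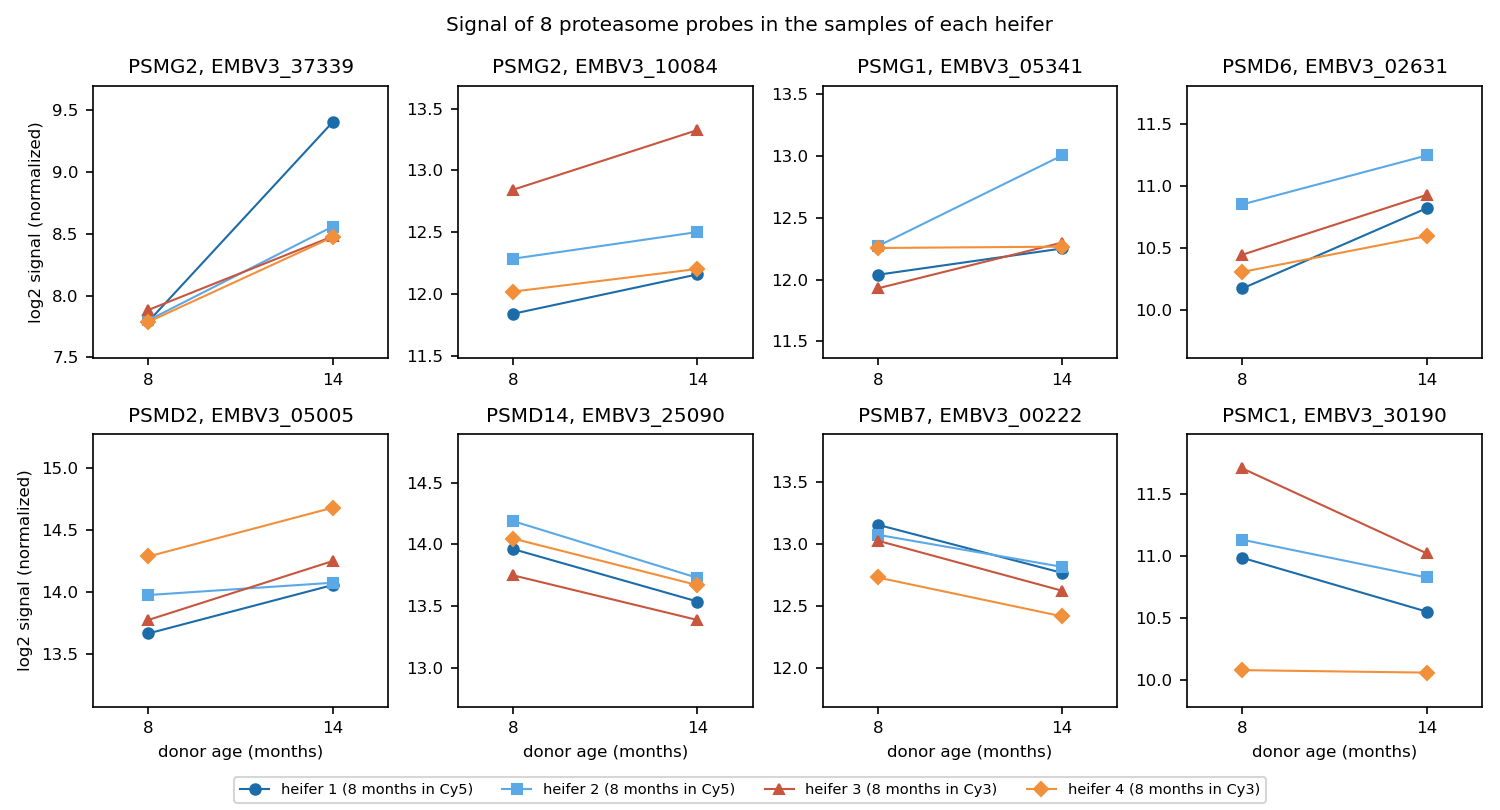
Normalized log2 signal (vertical axis) of 8 proteasome probes at 8 and 14 months (horizontal axis), each line 1 heifer. The lines rise from 8 to 14 months for the PSMG2, PSMG1, PSMD6 and PSMD2 probes and fall for PSMD14, PSMB7 and PSMC1. In heifer 4 PSMC1 is nearly level, with a ratio of 0.02. With median centring PSMB7 turns to -0.02.

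The lid is the part of the cap that removes ubiquitin, and 1 of its 7 genes passed. PSMD6, a scaffold subunit, had log2 signals of 10.2, 10.9, 10.4 and 10.3 at 8 months and 10.8, 11.2, 10.9 and 10.6 at 14 months in heifers 1 to 4. Levels of different heifers overlapped, while within each heifer the 8-month embryos were lower, by -0.65, -0.40, -0.48 and -0.29. The fitted ratio was -0.45 ± 0.10 (SE, n = 4), or 1.37-fold higher at 14 months. The adjusted p was 0.0629 over all probes and 0.0481 over genes. Leaving out any heifer ended the gene-level call, with adjusted p of 0.257, 0.131, 0.138 and 0.0613 without heifers 1 to 4.

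PSMD14, the metalloprotease that cuts ubiquitin chains from substrates, went the other way. Its ratios were 0.42, 0.46, 0.36 and 0.38, with an SD of 0.04. The fitted ratio was 0.40 ± 0.09 (SE, n = 4), or 1.32-fold higher at 8 months, with an adjusted p of 0.0641 over probes and 0.0531 over genes. It missed the threshold on both counts, and with median centring it was 0.004 (adjusted p = 0.984). Of the other lid genes, PSMD7, partner of PSMD14, was at 0.14 ± 0.09 and turned to -0.10 with median centring. PSMD12, PSMD8 and PSMD3 were at -0.21 ± 0.11, 0.00047 ± 0.11 and -0.07 ± 0.10, and PSMD8 was at -0.32 with median centring. PSMD3 was above background in 1 sample at 8 months and 3 at 14 months. PSMD11 was at 0.02 ± 0.13, from -0.10, -0.24, 0.57 and -0.15, at -0.16 without heifer 3 and at -0.23 with median centring.

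The base of the cap holds the ATPase ring and the subunits that bind ubiquitin. PSMD2, a large scaffold subunit, was lower at 8 months in all 4 heifers with both tested probes, at -0.39, -0.10, -0.48 and -0.39 for EMBV3_05005 and -0.27, -0.31, -0.58 and -0.19 for EMBV3_26741. The fitted ratios were -0.34 ± 0.10 for each (adjusted p = 0.0972 and 0.108), and neither passed. PSMD4, a ubiquitin receptor, gave 0.56, 0.13, 1.09 and 0.10, with a fitted ratio of 0.47 ± 0.17 (adjusted p = 0.147). All 4 values were above 0 and heifers 1 and 3 were far above the others. Without heifer 4 it was 0.72 and passed (adjusted p = 0.0241), and without heifer 3 it was 0.22 (adjusted p = 0.389). PSMD1, the other large scaffold, was at 0.08 ± 0.10, and with median centring at -0.26.

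The 6 ATPase genes PSMC1 to PSMC6 encode the unfolding motor. Of 8 tested probes, 7 were above 0 with loess and 3 with median centring, and 0 passed in the reported setting. At an unadjusted p under 0.05 (limma) there were 2, where 26.5% of all probes passed. PSMC1 gave 0.43, 0.30, 0.69 and 0.02, with a fitted ratio of 0.36 ± 0.13 (adjusted p = 0.140), from 0.19 without heifer 3 (adjusted p = 0.397) to 0.53 without heifer 4 (adjusted p = 0.0422). PSMC2 was at 0.21 ± 0.14, from 0.77, 0.14, -0.28 and 0.22, and turned to -0.11 with median centring. The probes of PSMC3 disagreed. EMBV3_16546 gave 0.11, 0.36, 1.05 and 0.36, with a fitted ratio of 0.47 ± 0.13 (adjusted p = 0.0925), and the brighter EMBV3_36702 was at -0.10 ± 0.09. Without heifer 4, EMBV3_16546 was at 0.64 and passed (adjusted p = 0.0261), and without heifer 3 it was at 0.30 (adjusted p = 0.222).

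The alpha ring had 10 of 11 tested probes above 0 with loess and 1 with median centring, and 0 passed in the reported setting. At an unadjusted p under 0.05 (limma) there were 2, where 26.5% of all probes passed. Of the 10 probes above background in all 8 samples, 9 were above 0 with loess. Fitted ratios lay between -0.05 and 0.28. PSMA2 had 5 tested probes, from 0.02 to 0.28. Of these, EMBV3_24388, at 0.14, reached the filter at 8 months only, with 2 samples above background at 14 months. The brightest, EMBV3_22678, gave 0.11, 0.30, 0.18 and 0.53, with a fitted ratio of 0.28 ± 0.10 (adjusted p = 0.153). With median centring 4 of these 5 turned, to between -0.135 and -0.052. PSMA7 gave 0.36, 0.22, 0.08 and 0.42, with a fitted ratio of 0.27 ± 0.10 (adjusted p = 0.157), and turned to -0.07 with median centring. PSMA3 was at 0.07 ± 0.09 and at -0.24 with centring.

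In the beta ring, 8 of 13 tested probes were above 0 with loess and 2 with median centring, and 0 passed. At an unadjusted p under 0.05 (limma) there were 6, where 26.5% of all probes passed. All tested probes of PSMB7 were among these 6. PSMB7, the subunit with trypsin-like activity, was above 0 in all 4 heifers with its brightest probe, at 0.39, 0.26, 0.40 and 0.31. The fitted ratio was 0.34 ± 0.09 (SE, n = 4, adjusted p = 0.0859 over probes and 0.0764 over genes). Its other probes were at 0.24 ± 0.09, from 0.60, 0.76, -0.12 and -0.28, and at 0.28 ± 0.12, from -0.24, 0.06, 0.91 and 0.40. The sign of the former followed the dye arrangement, and the latter was higher in heifers 3 and 4. Their ± and p (limma) leave out this difference between the pairs. PSMB5, the subunit with chymotrypsin-like activity, was at 0.12 ± 0.10, from 0.33, 0.23, -0.23 and 0.14. PSMB6, the subunit with caspase-like activity, was at 0.06 ± 0.10 and -0.07 ± 0.11 with its probes. None of the catalytic subunits passed, and with median centring the brightest probes of PSMB7, PSMB5 and PSMB6 turned to -0.02, -0.22 and -0.34. PSMB4, a structural subunit, gave 0.44, 0.51, -0.04 and 0.35 with its brightest probe (0.31 ± 0.10, adjusted p = 0.125), and turned to -0.04. PSMB2, another structural subunit, was the lowest, at -0.81, -0.33, -0.07 and -0.03 (-0.31 ± 0.11, adjusted p = 0.142).

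The interferon-induced catalytic subunits replace the standard ones in the immunoproteasome. PSMB10 had ratios of -0.32, -0.11, -0.12 and -0.36 with its brighter probe, and a fitted ratio of -0.23 ± 0.10 (adjusted p = 0.202). All 4 heifers were below 0 and the probe did not pass. Its dimmer probe was at -0.05 ± 0.09, and at 0.01 with median centring. PSMB9 was at -0.06 ± 0.10. With PSMB8 not above background in any sample, only the level of PSMB9 and PSMB10 could be compared, and both were dim. At 8 months the log2 signal was 7.52 to 7.90 for PSMB9 and 7.68 to 8.21 for the brighter PSMB10 probe. The 10th percentile of probes above background was 7.50 to 7.69. PSMB9 was above background in 3 samples at 14 months, and the dimmer PSMB10 probe reached the filter at 14 months only.

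The activators open the core gate without ubiquitin, and 0 of the 8 tested probes of this group passed. At an unadjusted p under 0.05 (limma) there were 2, where 26.5% of all probes passed. PSME1 and PSME2, whose products form the interferon-induced activator ring, had similar profiles. PSME1 gave 0.65, 0.45, -0.09 and 0.43, with a fitted ratio of 0.36 ± 0.12 (adjusted p = 0.119). PSME2 gave 0.43, 0.62, -0.18 and 0.40, with a fitted ratio of 0.32 ± 0.12 (adjusted p = 0.160). In both genes heifer 3 was below 0 and the others above, and neither passed. PSME4, a nuclear activator, had probes at -0.02 ± 0.10, 0.12 ± 0.11 and 0.10 ± 0.09, and the last pair turned to -0.18 and -0.08 with median centring. PSMF1, which encodes a protein first known as an inhibitor of the core, was at -0.15 ± 0.12 with its brightest probe, and its other probes were at -0.06 ± 0.11 and -0.04 ± 0.14, the latter turning to 0.04 with median centring.

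**Figure D3:**
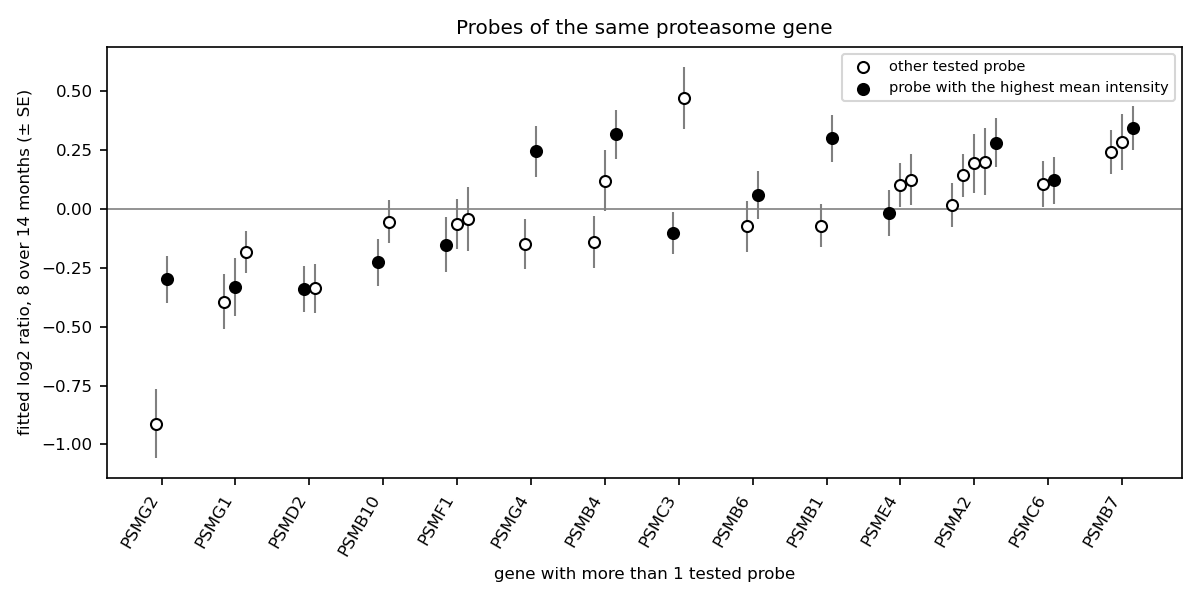
Fitted log2 ratio of 8 over 14 months ± its standard error (vertical axis) for the 14 genes with more than 1 tested probe. Filled points are the probe with the highest mean intensity. The 36 probes had 1 sign in 8 genes and differing signs in 6, and both PSMG2 probes lie below 0 at -0.91 and -0.30.

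Probes of the same gene are not replicates of the embryos. Of the 14 genes with more than 1 tested probe, 8 had all probes of the same sign and 6 did not: PSMB1, PSMB4, PSMB6, PSMC3, PSME4 and PSMG4. The dye arrangement was also compared. The ratios of heifers 1 and 2 correlated over the 65 proteasome probes at r = 0.726, and those of heifers 3 and 4 at 0.338, while pairs of opposite dye arrangement gave 0.139 to 0.334. These correlations are across probes, which are not independent, and the animals of each pair share the dye arrangement. Over all probes the values were 0.609, 0.386 and 0.0015 to 0.124. The mean of heifers 1 and 2 and that of heifers 3 and 4 had the same sign in 37 of 65 proteasome probes (56.9%, against 56.1% of all probes). The dye term passed for 0.102% of all probes and for 0 proteasome probes, whose lowest adjusted p was 0.110. The standard error combines the spread of heifers within a dye arrangement with a value shared by all probes (limma moderation). It leaves out the difference between the pairs. For PSMD14 it was 0.09 with moderation and 0.0095 without.

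Genes that work with the proteasome but have other symbols were taken from a list of 36. Of these, 29 had a probe and 26 were tested, and over probes 0 passed (limma), with 5 at an unadjusted p under 0.05 (19.2%, against 26.5% of all probes). Over genes, 1 passed (3.85%, against 4.5% of all genes). UBE3C, a ubiquitin ligase that works at the proteasome, gave 0.70, 0.45, 0.38 and 0.32, with a fitted ratio of 0.46 ± 0.10 (SE, n = 4, adjusted p = 0.0570 over probes and 0.0441 over genes). It was higher at 8 months by 1.38-fold, and in all 4 heifers. Leaving out any heifer ended this call, with an adjusted p over genes of 0.247, 0.128, 0.111 and 0.0674. With median centring the ratio was 0.18 (adjusted p over genes = 0.356).

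ADRM1, a ubiquitin receptor of the base, gave 0.66, 0.18, 0.48 and 0.59, with a fitted ratio of 0.48 ± 0.11 (adjusted p = 0.0673 over probes and 0.0529 over genes). It was above 0 in every heifer and did not pass. USP14, a deubiquitinase on the cap, was at 0.39 ± 0.12 (adjusted p = 0.0996) and 0.06 ± 0.09 with its probes. MAFG, a partner of the transcription factor NFE2L1 that drives proteasome genes, was at 0.38 ± 0.10 (adjusted p = 0.0757). NFE2L1 was at 0.15 ± 0.12 and NFE2L2 at -0.13 ± 0.10, the latter from 0.48, 0.11, -0.51 and -0.59. AKIRIN2, which takes proteasomes into the nucleus, was at -0.36 ± 0.10 (adjusted p = 0.0919) with its brighter probe. Its dimmer probe was at -0.11 ± 0.13, from -1.02, -0.58, 0.86 and 0.28. In NFE2L2 and the dimmer AKIRIN2 probe the sign followed the dye arrangement, a difference that ± leaves out. POMP, the chaperone of the beta ring, was at -0.24 ± 0.10 (adjusted p = 0.189). VCP, the segregase that delivers substrates, was at 0.02 ± 0.10 and 0.22 ± 0.10 with its probes. The latter probe reached the filter at 8 months only, with 2 samples above background at 14 months. The VCP cofactor NPLOC4 was at 0.22 ± 0.12 and FAF2 at -0.21 ± 0.10. The enzymes that activate ubiquitin, UBA1 and UBA6, were at -0.13 ± 0.12 and 0.12 ± 0.12. With median centring NFE2L1, VCP probe EMBV3_33267 and NPLOC4 turned to -0.01, -0.36 and -0.02.

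The smallest two-sided p that an exact sign-flip test over 4 heifers can give is 0.125, so no single gene could pass 0.05 by that test. All 4 arrays lay on 1 slide, and no slide effect could be tested.

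**Figure D4:**
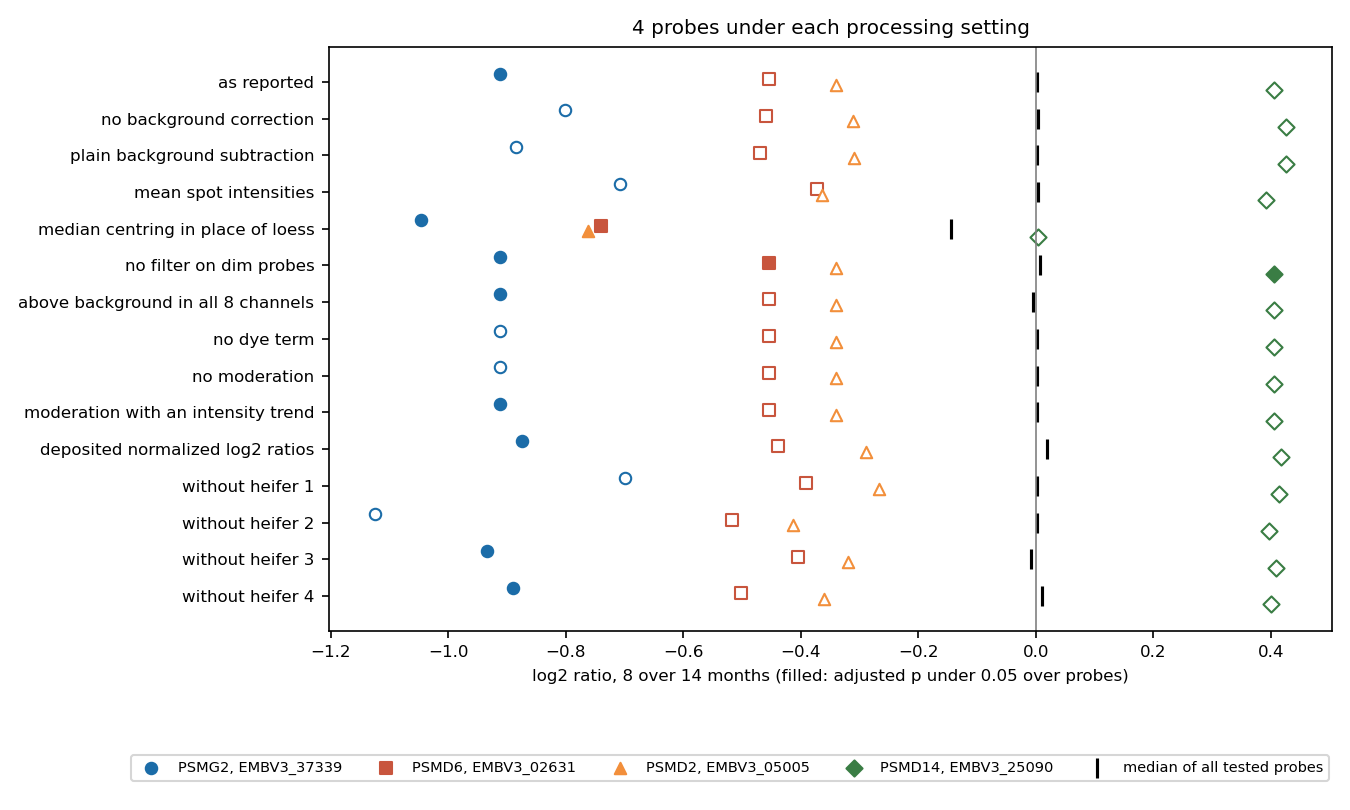
Fitted log2 ratio of 8 over 14 months (horizontal axis) for 4 probes under each processing setting (vertical axis). Filled points passed an adjusted p of 0.05 over probes, and black bars are the median of all tested probes. PSMG2, PSMD6 and PSMD2 stayed below 0 throughout, while PSMD14 moved from 0.40 to 0.004 with median centring.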

How the data were processed

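Per the labels' protocols, RNA of pooled blastocysts was amplified linearly in rounds of 6 h, labelled with Cy3 or Cy5 and hybridised to bovine arrays. The deposited scanner tables hold foreground and background intensity per spot, not normalized, per the file headers. No source used here names the scanning software. A deposited table of the authors' normalized log2 ratios reads Cy5 over Cy3 (r = 0.991 to 0.999 against the ratios computed here), with column medians of 0.0036, 0.00028, 0.0014 and -0.0094. The series value table holds them with the sign turned for heifers 3 and 4 (medians -0.0014 and 0.0094). The log base was inferred from slopes of 0.987 to 0.996, and their background correction and centring are unknown.

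Median intensities were corrected with normexp (offset 50) and loess (control spots without weight), leaving out 1426 control or unnamed spots (limma 3.58.1, R 4.3.3). Probes were tested with lmFit and eBayes, age and dye as terms and 2 residual degrees of freedom, with Benjamini-Hochberg adjustment. Standard errors are those moderated by eBayes, with 4.99 prior degrees of freedom. Genes took their brightest detected probe. Of all probes 21790 had 1 symbol, 22004 none and 0 several, and all 78 proteasome symbols were current in RefSeq. The number of arrays limits the precision. Members, lists and tests were chosen with earlier results of these data known. Genes were named if they passed, had the 2 smallest p of their role, or were on a fixed list. The other members with values in the text were added after those were seen. Only the model fit was tested on simulated log2 ratios, with planted changes larger than any fitted for a proteasome probe. Background correction, loess, the filter and the choice of probe per gene were not tested in this way. Recovery of changes as small as those reported was not tested either.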

Additional observations from a re-analysis of the deposited data

Results flagged for a closer look

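In 4 of the 65 tested proteasome probes the ratio of 1 heifer lay far from the other 3, by a gap that exceeds Dixon's critical value for 4 samples. Chance gives about 1 in 20 such probes, and 4 of 65 is close to that share. The share over all tested probes was not counted. The rule sets the gap against the range of the ratios of the probe, so the gap itself can be small, as for PSMA3. For the assembly chaperone gene PSMG2 (probe EMBV3_37339) heifer 1 was at -1.61 and the others between -0.76 and -0.59. For the lid gene PSMD11, heifer 3 was at 0.57 and the others between -0.24 and -0.10. For the alpha-ring gene PSMA4, heifer 3 was at 0.79 and the others between -0.21 and -0.05. For the alpha-ring gene PSMA3, heifer 3 was at -0.065 and the others between 0.10 and 0.13.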

How the results depend on the processing

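Over the tested members and named pathway probes 36 of 78 kept their sign in every alternative, and 69 of 1137 values turned. Changing the filter, the dye term, the moderation or the unit of testing leaves the fitted ratio as it was. Values of those settings are among the 1137 and could not turn. The cause was not tested where not stated. The number of probes that passed over all probes, 332, was 0 without background correction, with plain subtraction, with mean spot intensities, without the dye term and without moderation (unadjusted p under 0.05: 4506, 4576, 4582, 3153 and 2785), 3416 with median centring (81 higher and 3335 lower at 8 months, against 98 and 234), 1013 without the filter, 897 with an intensity trend, and 0 to 1180 leaving out a heifer (0 without heifers 1 and 2, unadjusted 2605 and 3396). Proteasome probes that passed were 0 in the same 5 settings (unadjusted 20, 19, 22, 16 and 8), 11 with median centring, 3 without the filter and 0 to 4 leaving out a heifer. Genes that passed, 378, were 0 with mean intensities, without the dye term and without moderation, 2078 with median centring, and 0 to 339 leaving out a heifer. Proteasome genes that passed were 2 without background correction, with plain subtraction, without the filter, with the trend and with deposited ratios (PSMD14 and PSMD6), 0 with mean intensities, without the dye term and without moderation, 9 with median centring, and 0 to 1 leaving out a heifer. With median centring the median of all tested probes was -0.14, and the medians were -0.15 for all proteasome probes, -0.11 for the core, -0.23 for the cap, -0.0789 for the activators and the inhibitor and -0.29 for the assembly chaperones. The cap median was 0.0436 with mean intensities, and that of the activators and the inhibitor ranged from 0.0148 to 0.131 leaving out a heifer. Leaving out a heifer also gave 0.0246 to 0.0934 for all proteasome probes, 0.0246 to 0.0996 for the core (lowest without heifer 4 in both), 0.0484 to 0.161 for the cap and -0.19 to -0.0577 for the assembly chaperones (-0.034 with mean intensities).

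PSMG2 probe EMBV3_37339 had adjusted p of 0.00515 to 0.317: it was lost without background correction (-0.80, 0.0688), with plain subtraction (-0.88, 0.0604), mean intensities (-0.71, 0.0804), no dye term (0.137) and no moderation (0.317), and kept with deposited ratios (-0.87, 0.0409). PSMD6 over genes was lost with mean intensities (0.0841), no dye term (0.120) and no moderation (0.308), and UBE3C with mean intensities (0.0793), no dye term (0.119), no moderation (0.292) and median centring (0.356).

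With median centring values turned for PSMA1 (-0.194), PSMA2 (-0.0522, -0.0645, -0.135 and -0.0973), PSMA3 (-0.241), PSMA4 (-0.151), PSMA5 (-0.334), PSMA7 (-0.0675), PSMB1 (-0.0253), PSMB4 (-0.0369 and -0.0848), PSMB5 (-0.223), PSMB6 (-0.341), PSMB7 (-0.0228), PSMB10 (0.0118), PSMC2 (-0.113), PSMC4 (-0.273), PSMC5 (-0.304), PSMC6 (-0.177), PSMD1 (-0.264), PSMD11 (-0.226), PSMD7 (-0.0997), PSMD8 (-0.316), PSME4 (-0.184 and -0.0754), PSMF1 (0.0395), PSMD10 (-0.248), PSMD9 (-0.29), PSMG3 (-0.0584), PSMG4 (-0.0598), NFE2L1 (-0.014), VCP (-0.359) and NPLOC4 (-0.0192). With mean intensities values turned for PSMD11 (-0.00745), PSMD8 (-0.11), PSME4 (0.0700) and PSMD9 (-0.0157), without background correction for PSMD8 (-0.0128), with plain subtraction for PSMD8 (-0.014) and PSMD9 (-0.00231), and with deposited ratios for PSMF1 (0.00669). Leaving out a heifer turned probes of PSMB6 (-0.18 to 0.0332 and -0.00976 to 0.128), PSMB9 (-0.129 to 0.00726), PSMD1 (-0.00133 to 0.166), PSMD11 (-0.157 to 0.201), PSMF1 (-0.149 to 0.0194 and -0.234 to 0.145), PSMD10 (-0.0577 to 0.135), UBA6 (-0.0111 to 0.248), PSMA2 (-0.0278 to 0.0595), PSMA5 (-0.0649 to 0.0862), PSMD3 (-0.149 to 0.00447), PSMD8 (-0.112 to 0.113), PSME4 (-0.0694 to 0.0332), VCP (-0.0443 to 0.0889), UBA1 (-0.27 to 0.00472), PSMA4 (-0.166 to 0.334), PSMB3 (-0.317 to 0.0086), PSMB4 (-0.0408 to 0.28) and PSMD9 (-0.0163 to 0.0431). The reported fit is itself paired, since each array holds both ages of a heifer, and with 1 array per heifer no further replicate block could be fitted.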
